A study of Caenorhabditis elegans with 12 samples.

Results

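RNA levels were described in control L3 larvae of *C. elegans*, the animals fed empty vector bacteria in a study of RNAi against *nuo-5*, which encodes a subunit of mitochondrial complex I. The 4 arrays labelled WT were taken, of 12 in the series, and no value of another array entered the means. The authors had normalized the deposited values over the arrays, so other arrays may have shaped them. The larvae were of the N2 strain, grown at 20 °C on plates spotted with pL4440 bacteria, the empty RNAi vector, and collected at the third larval stage (L3). The other 8 arrays hold mild and strong *nuo-5* RNAi larvae and served here only for 1 check of replicate numbers in the closing section. Each array holds RNA of a pellet of whole larvae washed from several plates, so that it averages over many animals and all tissues. Plates of the study carried either lutein or its solvent DMSO, and the labels do not say which plates a given control array came from, nor the generation of the controls. The replicates, called biological in the labels, are numbered I, III, IV and V. A further replicate had been left out by the authors as very different from the rest. Values given for all 4 arrays follow the order I, III, IV and V. Small RNA fractions had been removed on the columns, so that levels of small RNAs cannot be read from these arrays.

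An RMA value is a log2 brightness of a probe set. Of 29317 probe sets, 25546 carried 1 gene symbol and gave 25478 genes, each represented by its brightest probe set. Brightness depends on how well the probes bind as well as on the amount of RNA, and it is not a level per length of transcript, so the orders given here are orders of brightness. In RNA of whole larvae, few cells of a type and little RNA per cell cannot be told apart. Every mean below is over the 4 arrays and is given with its SD (n = 4). No test was run, since the arrays form 1 group. Correlations between the 4 arrays over all probe sets lay between 0.975 and 0.985, the lowest between I and IV. The median of array IV was 3.504, against 3.45 on each of the other 3.

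Larval stages of *C. elegans* are separated by moults. At each moult the epidermis secretes a new collagen cuticle, and genes for its collagens and for the enzymes that free the old cuticle are known to be switched on and off once per larval stage. In the gonad of an L3 hermaphrodite the germ cells multiply and the first of them enter meiosis, while sperm, oocytes, yolk and embryos belong to later stages. In the epidermis the cells that will form the vulva receive their fates. These known features of the stage set which lists of tissue, germ line and stage genes were read against the arrays.

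A background level of 3.03 was set at the 40th percentile of all values on the control arrays. A gene was called above background where all 4 arrays exceeded it and at background where all 4 lay below it. By this rule 13324 of 25478 genes (52.3%) were above background, 7625 (29.9%) were at background and 4529 (17.8%) had arrays on both sides. Of 18804 protein-coding genes, 11875 were above background and 4312 at background, with a median level of 4.41. Of 5972 genes annotated as ncRNA, 1277 were above and 2959 at background, with a median of 2.76, and of 608 pseudogenes 127 were above.

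**Figure D1:**
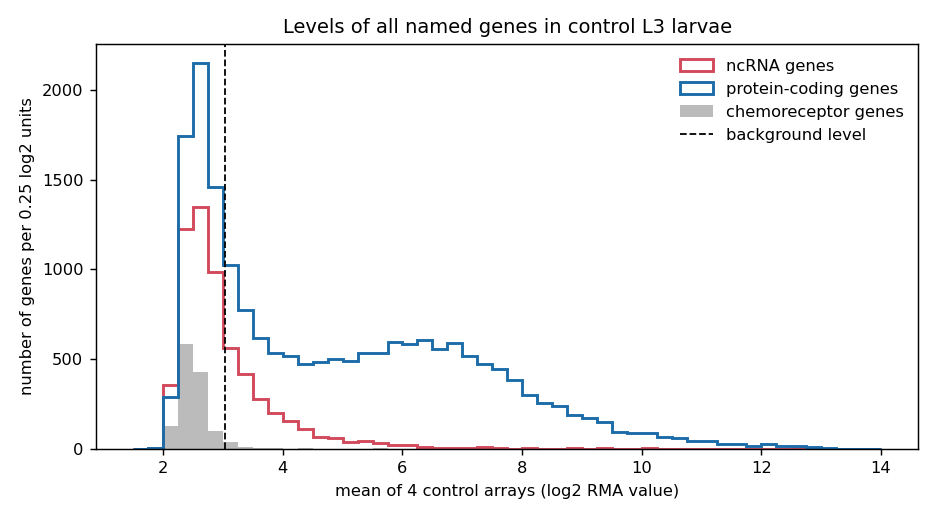
Number of genes (vertical axis, per 0.25 log2 units) by mean level on the 4 control arrays (horizontal axis, log2 RMA value) for protein-coding genes, ncRNA genes and, filled, the 1299 chemoreceptor genes, with the background level of 3.03 as a dashed line. Protein-coding genes form a peak below the line and a broad shoulder above it, while ncRNA and chemoreceptor genes lie mostly in the lower peak.

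The share of protein-coding genes above background differed between chromosomes. It was 77.3% of 2530 genes on chromosome III and 72.9% of 2731 on chromosome I, against 48% of 4694 on chromosome V. Chromosomes X, IV and II lay between, at 67.8%, 64.6% and 60.6%. All 12 protein-coding genes of the mitochondrial genome were above background, with a median level of 12.22.

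Ribosomal protein genes were the largest group among the 25 brightest named genes in control larvae. Among the 25 brightest named genes 15 encode ribosomal proteins, 4 encode cuticle collagens, 1 lies in the mitochondrial genome and 3 are non-coding. The brightest was *rps-25*, a protein of the small ribosomal subunit, with 13.64, 13.62, 13.62 and 13.66. The ribosomal RNA gene *rrn-2.1* followed with 13.43, 13.34, 13.28 and 13.40 and *rpl-36*, a protein of the large subunit, with 13.17, 13.16, 13.20 and 13.20. For *rps-25* and *rrn-2.1* all 4 values lay above all 4 of the next gene, whereas each of the others overlapped with its next neighbour, so that the order among them lies within the spread between arrays. The collagen genes *col-73*, *dpy-13*, *dpy-4* and *col-155* averaged 13.08 ± 0.14, 12.84 ± 0.21, 12.73 ± 0.20 and 12.70 ± 0.35. The collagens were spread more widely between arrays than the ribosomal protein genes beside them. The 4 values of *col-155* were 12.89, 12.21, 12.66 and 13.01, lowest on III, and those of *dpy-13* were 12.62, 12.90, 13.10 and 12.74, highest on IV. Of the rest, *nlp-24*, which encodes a neuropeptide-like protein, had 13.03, 12.71, 12.95 and 13.09, and *atp-1*, the alpha subunit of ATP synthase, had 12.94, 12.97, 12.85 and 12.90. *ND1*, a complex I subunit encoded in the mitochondria, had 12.55, 12.61, 12.69 and 12.90. The non-coding *srpr-2.2* and *F31C3.15* averaged 12.94 ± 0.27 and 12.70 ± 0.14.

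**Figure D2:**
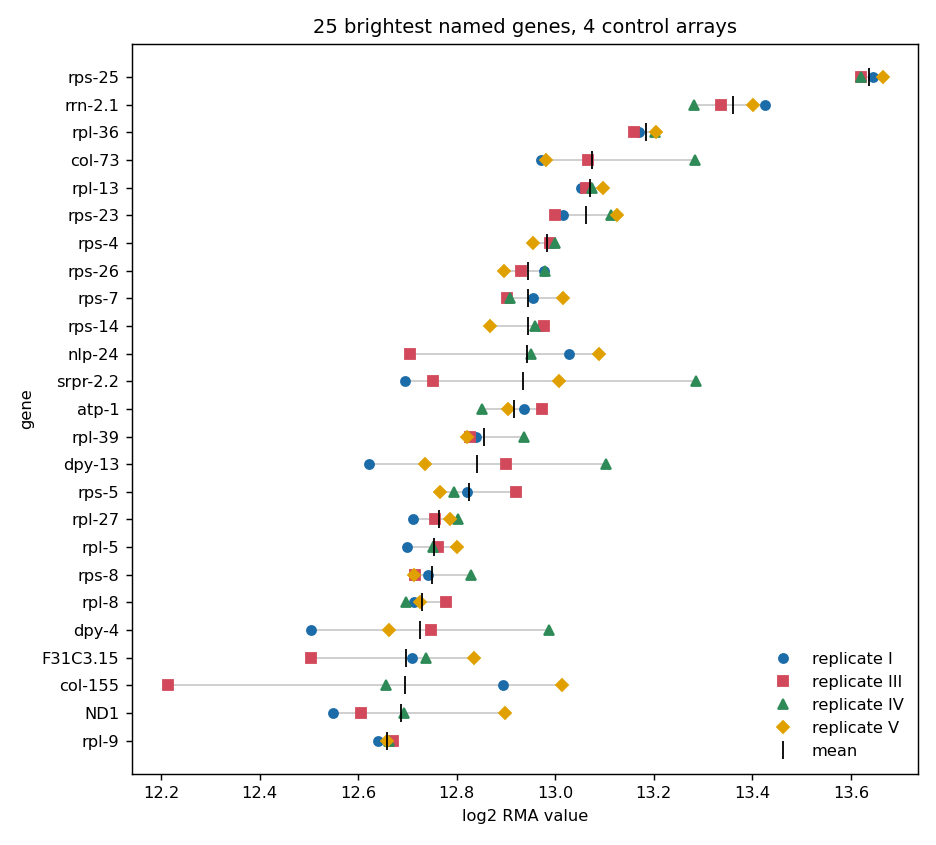
Log2 RMA values (horizontal axis) of the 25 brightest named genes (rows, brightest at the top) on the 4 control arrays, 1 marker per replicate, with the mean as a vertical tick and a grey line from the lowest to the highest value. Only *rps-25* and *rrn-2.1* are clear of the next gene on all arrays, and the collagens *col-73*, *dpy-13*, *dpy-4* and *col-155* are spread more widely than the ribosomal protein genes.

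Further down the order the same groups stayed frequent. The 100 brightest genes held 40 ribosomal protein genes, 8 collagens and 9 of the 12 protein genes of the mitochondrial genome. Of the 75 rpl and rps genes, 74 were above background, with a median level of 11.80 and a median SD of 0.06. The exception, *rpl-42*, had 3.17, 2.53, 2.82 and 2.98. The most variable of them, *rpl-29*, had 7.23, 7.24, 7.28 and 7.79, highest on V. A gene named after its values were seen, *rpl-28*, had 12.08, 12.08, 12.08 and 12.08, the smallest SD (0.0013) of the 453 genes with a mean above 10. Of the probe sets with a mean above 12, 80 carried 1 symbol, 29 several and 52 none. Some probe sets without a gene name of their own were brighter still. Of the 3125 probe sets that the annotation does not name, 5 exceeded every named gene, the brightest with a mean of 14.29 ± 0.11, and of the 646 shared by several genes 6 did, up to 14.43. Probe sets shared by histone genes alone gave 44 distinct profiles with a median of 10.05, of which 38 were above background.

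Genes of the large somatic tissues were above background without exception in the lists examined. All 20 body wall muscle genes were, with a median level of 9.47 against 3.46 over all 25478 genes. Their brightest members encode parts of the sarcomere. The myosin heavy chain *unc-54* had 12.24, 12.10, 12.27 and 12.34, the myosin light chain *mlc-2* 12.05, 11.84, 12.09 and 12.22, troponin I *unc-27* 11.82, 11.81, 12.02 and 12.08 and troponin T *mup-2* 11.58, 11.42, 11.60 and 11.72. The dimmest were the myosin chaperone *unc-45* and the muscle transcription factor *hlh-1*, which averaged 5.94 ± 0.15 and 5.23 ± 0.26. All 15 intestinal genes were above background, with a median of 8.33. Here *spp-5*, a saposin-like protein, averaged 12.04 ± 0.23, the aspartic protease *asp-1* 11.89 ± 0.30, the microvillar actin *act-5* 11.46 ± 0.31 and the intermediate filament *ifb-2* 10.40 ± 0.29. At the lower end, the GATA factor *elt-7* averaged 5.85 ± 0.10 and ferritin *ftn-1* 3.94 ± 0.25. All 10 epidermal factors and junction genes were above background, with *lin-26*, an epidermal fate factor, at 9.69 ± 0.18 and the nuclear receptors *nhr-23* and *nhr-25*, which are needed for moulting, at 8.37 ± 0.15 and 8.24 ± 0.14. The median SD was 0.12 in body wall muscle, 0.36 in intestine and 0.14 in epidermis, against 0.23 over the 15248 genes with a mean above background.

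Genes listed for smaller tissues were measured as well, some of the regulators only at background. RNA of whole larvae does not show in which cells a listed gene is expressed. In pharyngeal muscle 9 of 10 genes were above background, with the pharyngeal myosins *myo-1* and *myo-2* at 10.54 ± 0.13 and 8.94 ± 0.21 and the organ identity factor *pha-4* at 6.88 ± 0.11. The tenth, the homeodomain gene *ceh-22*, had 3.03, 3.19, 2.73 and 2.72, on both sides of the background level. Of 10 pharyngeal gland genes 8 were above, led by the lysozyme *lys-8* at 9.32 ± 0.19 and *phat-4* at 8.81 ± 0.51, while *hlh-6*, the gland transcription factor, had 2.41, 2.24, 2.05 and 2.38 and was at background. Of 9 measured seam cell genes 7 were above, led by the hedgehog-related *wrt-2* and *grd-10* at 9.16 ± 0.68 and 8.20 ± 0.34, and *ceh-16*, an engrailed homologue, was at background with 2.31, 2.37, 3.02 and 2.48. All 7 glial genes, all 4 coelomocyte genes and 7 of 8 genes of the excretory system were above background. Their brightest members were *lit-1*, a kinase, at 7.76 ± 0.07, the ion channel *cup-5* at 5.61 ± 0.24 and the aquaporin *aqp-8* at 8.25 ± 0.17. In the coelomocyte list *unc-122* averaged 4.59 ± 0.30, and *lgc-26* had 4.24, 4.25, 4.26 and 4.26.

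**Figure D3:**
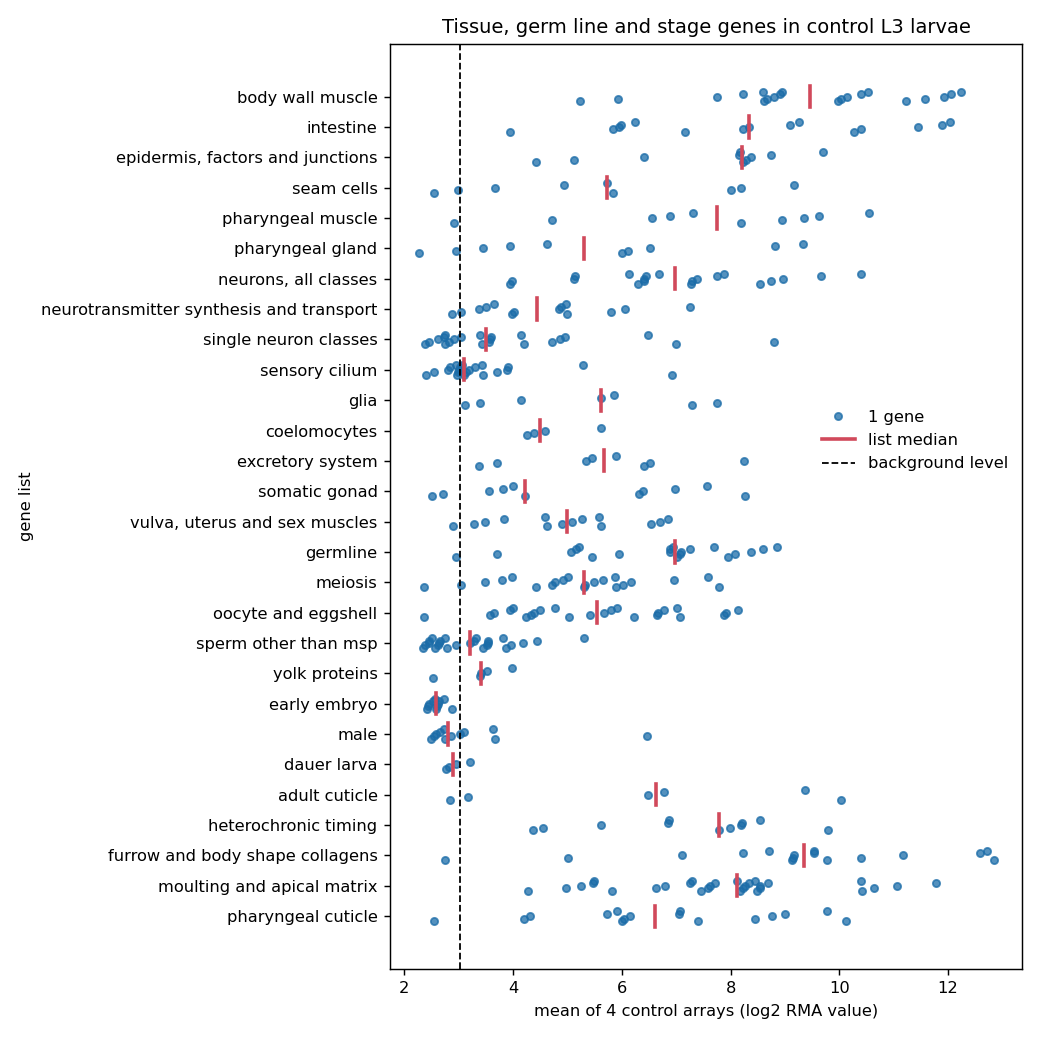
Mean level on the 4 control arrays (horizontal axis, log2 RMA value) of every measured member of 28 gene lists (rows), with 1 point per gene, the list median as a red bar and the background level as a dashed line. Muscle, intestine, epidermis, moulting and timing genes lie to the right, early embryo, dauer and most male genes at the line or left of it, and sperm and sensory cilium genes on both sides.

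The lists for neurons ranged over the whole scale. All 20 genes used by all classes of neurons were above background, with a median level of 6.98. Synaptobrevin *snb-1* had 10.23, 10.30, 10.72 and 10.35, the proprotein convertase *egl-3* 9.58, 9.63, 9.92 and 9.52 and the carboxypeptidase *egl-21*, which like *egl-3* matures neuropeptides, 8.80, 8.94, 9.27 and 8.85. The dimmest of the 20, *ric-19* and the dense core vesicle factor *unc-31*, averaged 3.99 ± 0.16 and 3.94 ± 0.22. Genes for the synthesis and transport of transmitters were above background in 12 of 14 cases, with a median of 4.44. The amine decarboxylase *bas-1* averaged 7.25 ± 0.26 and the GABA-producing enzyme *unc-25* 5.79 ± 0.26, whereas *tph-1*, the enzyme for serotonin, was at background with 2.84, 2.93, 3.01 and 2.71. The acetylcholine genes unc-17 and cha-1 share a probe set and were not analysed here. Genes that mark single neuron classes were above background in 13 of 22 cases and at background in 5, with a median of 3.49. The tubulins of the touch neurons, *mec-12* and *mec-7*, were both above it, with 6.57, 6.86, 7.42 and 7.15 for *mec-7* and a mean of 8.80 ± 0.23 for *mec-12*, and the tubulin acetyltransferase *mec-17* averaged 6.47 ± 0.12. At the low end were the receptor *str-2* and the fate factor *che-1*, with 2.44, 2.26, 2.38 and 2.71 for *str-2* and 2.35, 2.44, 2.54 and 2.17 for *che-1*. Of 21 sensory cilium genes 8 were above background, 3 at background and 10 on both sides, with a median of 3.09 close to the background level. Only *daf-19*, the RFX factor that drives ciliary genes, and the BBSome subunit *bbs-5* averaged above 5, at 6.93 ± 0.05 and 5.29 ± 0.14. The intraflagellar transport gene *che-11* and the BBSome subunit *bbs-2* were at background, with 2.35, 2.55, 2.71 and 2.57 and 2.41, 2.45, 2.54 and 2.20. With the background at the 30th or the 50th percentile, 14 or 4 of the 21 were above it.

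Chemoreceptors and families of peptide genes were far apart. The nlp family was taken by symbol and also holds the antimicrobial peptide gene *nlp-29*. Of 1299 chemoreceptor genes 22 were above background and 1115 at background, with a median of 2.47. The brightest, *srw-85* and *srr-4*, averaged 6.87 ± 0.16 and 6.33 ± 0.43. Of 31 flp genes, which encode FMRFamide-like peptides, 30 were above background with a median of 6.14, led by *flp-9* at 8.70 ± 0.13 and *flp-15* at 8.56 ± 0.38. Of 78 nlp genes 66 were above background with a median of 5.27, with *nlp-33* next after *nlp-24* at 10.95 ± 0.23. Insulin-like peptide genes were above background in 22 of 40 cases and at background in 10, led by *daf-28* at 7.80 ± 0.37 and *ins-30* at 7.77 ± 0.19.

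Genes of the germ line, of meiosis and of oocytes were nearly all above background, and genes of sperm were divided. Of 20 measured germline genes 19 were above background, with a median level of 6.98. The translational regulators *nos-3* and *gld-1* had 8.89, 8.69, 8.81 and 9.02 for *nos-3* and 8.82, 8.53, 8.30 and 8.71 for *gld-1*, and the Piwi protein *prg-1* had 8.30, 8.22, 8.27 and 8.71. Of the 2 near-identical stem cell regulators of the FBF type, *fbf-1* averaged 3.71 ± 0.32 and was above background, and *fbf-2* had 2.78, 2.94, 2.61 and 3.43, on both sides. Meiosis genes were above background in 19 of 21 cases with a median of 5.30. The axis protein *him-3* averaged 7.78 ± 0.39, while *htp-1*, a paralogue of *him-3*, had 3.08, 2.54, 2.83 and 3.73 on both sides and *msh-4*, a crossover factor whose entry the reference table marks as a pseudogene, had 2.12, 2.80, 1.89 and 2.60 at background. Of 24 genes of oocytes and eggshell 23 were above background, with a median of 5.55. The eggshell gene *cbd-1* had 8.34, 8.19, 7.69 and 8.33, the RNA-binding proteins *mex-3* and *mex-5* averaged 7.91 ± 0.10 and 7.89 ± 0.35, and *nos-2* was at background with 2.29, 2.26, 2.70 and 2.18. Of 25 sperm genes measured, 10 were above and 8 at background, with a median of 3.21. The brightest was *spe-44*, a regulator of the spermatogenesis programme, with 5.90, 5.55, 4.88 and 4.90, followed by the phosphatase *gsp-3* with 5.42, 4.33, 4.27 and 3.75. Of the 4 major sperm protein genes with a probe set of their own, *msp-78* was above background with 6.60, 5.17, 4.35 and 4.01 and the other 3 lay on both sides.

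Genes of the embryo, of yolk and of males were low. None of 11 early embryonic genes was above background and 10 were at background, with a median of 2.58. The endoderm factors *end-1* and *end-3* averaged 2.53 ± 0.07 and 2.59 ± 0.09, the mesendoderm factor *med-1* 2.45 ± 0.14 and *pes-10* 2.41 ± 0.15. The remaining one, *ceh-51*, had 3.26, 2.73, 2.72 and 2.83, above the level on I only. Yolk genes lay between 2.52 and 3.97 in their means, with 3.90, 4.26, 3.76 and 3.98 for *vit-1*, 3.88, 2.89, 3.05 and 3.71 for *vit-2*, 3.93, 3.45, 2.70 and 3.57 for *vit-6* and 2.78, 2.46, 2.38 and 2.48 for *vit-5*, which was the only one at background. Of 12 male genes 3 were above and 7 at background. The sex-determination gene *her-1* and the mating plug gene *plg-1* averaged 2.57 ± 0.13 and 2.54 ± 0.06. The exceptions were the doublesex-related *mab-3* and *dmd-3*, with 6.86, 6.13, 6.52 and 6.32 for *mab-3* and 3.56, 3.51, 3.96 and 3.49 for *dmd-3*, and *cwp-5* at 3.67 ± 0.29. In the list for the somatic gonad 9 of 11 genes were above background, with the sex-determination factor *tra-1* at 8.27 ± 0.09. In the same list *lag-2*, a Notch ligand made by the distal tip cell, averaged 3.82 ± 0.15, and *ehn-3* was at background at 2.51 ± 0.21. In the list for vulva, uterus and sex muscles 12 of 14 were above background. The zinc finger gene *vab-23* averaged 6.85 ± 0.38, the LIM homeobox gene *lin-11* 6.70 ± 0.41, the FGF receptor *egl-15* 6.53 ± 0.14 and the EGF-like inducer *lin-3* 5.61 ± 0.31. The other 2, the FGF gene *egl-17* and the PAX gene *egl-38*, lay on both sides with 3.43, 2.91, 3.32 and 3.47 for *egl-17* and 3.18, 3.08, 2.66 and 2.68 for *egl-38*.

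The timing genes were all measured above background. The 11 heterochronic genes, which set the order of larval stages, had a median level of 7.79. Those of the early stages differed in brightness, with *lin-14* at 7.14, 6.79, 6.58 and 6.87 and *lin-28* at 4.20, 4.51, 5.03 and 4.46. The later regulators *hbl-1* and *lin-41* averaged 6.87 ± 0.05 and 8.21 ± 0.17, and the period homologue *lin-42* had 7.52, 8.50, 8.48 and 7.45, higher on III and IV than on I and V. Adult cuticle genes did not form a block. The collagen *col-19*, known as a marker of the adult cuticle, had 3.09, 2.67, 2.65 and 2.93 and *col-62* had 3.10, 3.16, 3.40 and 3.02, each on both sides of the background, whereas *col-7* averaged 10.04 ± 0.16 and the blister collagens *bli-6*, *bli-1* and *bli-2* averaged 9.37 ± 0.72, 6.77 ± 0.62 and 6.48 ± 0.70. All 3 bli genes were lowest on V, with 8.31, 5.85 and 5.48. Of 4 dauer genes, *cut-6* was above background at 3.21 ± 0.13, *col-40* and *cut-1* were at background at 2.82 ± 0.15 and 2.76 ± 0.16, and *col-2* had 3.28, 2.42, 2.75 and 3.36.

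Genes of cuticle formation were bright and uneven between arrays. Of 16 measured collagens of the furrows and of body shape 15 were above background, with a median level of 9.34 and a median SD of 0.41. After *dpy-13* and *dpy-4* came *dpy-5*, which averaged 12.58 ± 0.24, and *sqt-3*, with 10.81, 11.34, 11.67 and 10.89. The 3 with the largest SD were *dpy-8*, *dpy-3* and *dpy-2*. Their values were 8.83, 9.75, 9.93 and 8.12 for *dpy-8* and 8.69, 9.67, 9.89 and 8.29 for *dpy-3*, and *dpy-2* averaged 9.53 ± 0.62. In each of the 3, III and IV were above I and V. At the low end *dpy-14* averaged 2.74 ± 0.21, and *dpy-17*, with 4.97, 5.55, 4.67 and 4.85, was highest on III but lowest on IV. All 29 genes of moulting and the apical matrix were above background, with a median of 8.12. The zona pellucida proteins *noah-1* and *noah-2* of the matrix averaged 11.77 ± 0.47 and 11.06 ± 0.46, and the lipocalin *lpr-3* 10.64 ± 0.52. The hedgehog-related *wrt-1* had 8.30, 9.20, 9.33 and 7.95, the moulting protease *nas-37* 8.13, 8.98, 9.12 and 7.91 and the hedgehog-related *qua-1* 8.08, 9.09, 8.98 and 8.05, again higher on III and IV. Pharyngeal cuticle genes were above background in 15 of 16 cases, with a median of 6.60, led by *abu-14* at 10.13 ± 0.34 and *pqn-13* at 9.77 ± 0.34. Their most variable members ran the other way. The values were 6.33, 4.48, 4.49 and 7.62 for *abu-15*, 7.66, 5.90, 6.87 and 7.77 for *abu-11* and 7.76, 6.71, 6.92 and 8.19 for *abu-10*, higher on I and V than on III and IV.

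Genes of growth were above background throughout. All 23 genes of DNA replication and mitosis were above background, with a median level of 7.07 and a median SD of 0.18. Over all genes with a mean from 6.99 upwards the median SD was 0.16. The kinase *cdk-1* averaged 8.65 ± 0.12, the ribonucleotide reductase subunit *rnr-2* 8.33 ± 0.22 and, at the low end, the replication licensing factor *cdc-6* 5.23 ± 0.20. All 18 measured translation factors and genes in common use as controls were above background, with a median of 9.80 and a median SD of 0.10. Among them the chaperone *hsp-1* had 11.99, 12.07, 11.98 and 12.18, the ubiquitin fusion gene *ubq-2* 11.98, 12.01, 12.08 and 11.98 and the elongation factor *eef-2* 11.97, 12.04, 11.86 and 12.01. The lowest was *tba-2*, an alpha-tubulin, at 4.81 ± 0.06, beside *tba-1* at 11.65 ± 0.07.

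Of the genes that the study discusses, 18 of 19 measured were above background. The target of the RNAi, *nuo-5*, had 8.29, 8.56, 8.43 and 8.42 in these untreated larvae, and the complex I subunits *nuo-1*, *nuo-2* and *lpd-5* averaged 9.71 ± 0.11, 8.61 ± 0.11 and 7.61 ± 0.08. The synaptic adhesion genes *nlg-1* (neuroligin) and *nrx-1* (neurexin) had 6.89, 6.75, 7.36 and 7.12 for *nlg-1* and 5.98, 6.32, 6.35 and 6.44 for *nrx-1*. The presynaptic scaffold *unc-10* averaged 7.38 ± 0.22 and *madd-4*, a secreted synapse organiser, 5.38 ± 0.22. The widest spread belonged to *dct-1*, a mitophagy receptor, with 7.71, 7.72, 8.60 and 7.19, highest on IV. The exception was the flavin monooxygenase *fmo-2*, with 2.78, 2.94, 2.81 and 3.06, on both sides of the background. Reporters of stress differed by pathway. The mitochondrial chaperones *hsp-6* and *hsp-60* averaged 12.20 ± 0.06 and 11.10 ± 0.04, the glutathione S-transferase *gst-4* 8.13 ± 0.23 and the antimicrobial peptide gene *nlp-29* 9.65 ± 0.39. The heat shock genes *hsp-70* and *hsp-16.41* were at background, with 2.13, 2.74, 2.06 and 2.11 and 2.27, 2.08, 2.23 and 2.02. Probe sets shared by several hsp-16 genes gave 3 distinct profiles, all 3 above background, with means from 3.71 to 5.97. In all 17 of 22 measured stress reporters were above background.

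Large gene families mostly held members both above and at background. Their counts stand beside the 52.3% of all genes, and the 11875 of 18804 protein-coding genes, that were above it. A count near these shares does not set a family apart. Of 153 col genes 100 were above and 26 at background. Of 271 nuclear hormone receptors 156 were above and 69 at background, led by *nhr-97* at 9.54 ± 0.17 and *nhr-49*, a regulator of fat metabolism, at 9.08 ± 0.12. C-type lectins were above background in 81 of 247 cases, with *clec-63* the brightest at 11.02 ± 0.36, and F-box genes of the fbxa, fbxb and fbxc groups in 54 of 340, with 221 at background. Cytochrome P450 genes were above in 38 of 74 cases, the brightest being *cyp-33A1* at 8.05 ± 0.07. The gut proteases of the cpr and asp families were above in 18 of 25, led by *cpr-5* at 12.25 ± 0.19 and *asp-6* at 11.97 ± 0.30, and lysozymes in 9 of 16, led by *lys-1* at 10.96 ± 0.25. Of 70 mitochondrial ribosomal protein genes 69 were above background, with a median of 7.54.

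The spread between the 4 arrays was small for most genes. Over the 15248 genes with a mean above background the median SD was 0.23 and the 90th percentile 0.49. An SD of at least 1 was reached by 81 of them (0.531%), 59 protein-coding and 22 ncRNA. The spread was smaller for bright genes. With these genes divided by their mean into 4 bins of 3812, the median SD was 0.16 in the brightest bin, from 6.99 upwards, against 0.27 in the dimmest, from 3.03 to 3.82. Of the 81, 40 lay in the bin from 3.82 to 5.40, where they made up 1.05% of genes. Only 1 of the 453 genes with a mean above 10 was among them. The 81 genes were highest on I in 30 cases, on IV in 26, on III in 21 and on V in 4. They were lowest on IV in 29, on V in 24, on I in 22 and on III in 6. The pattern highest on I and lowest on IV held for 17, the opposite for 17 and highest on I with lowest on V for 13. The SD that chose these genes is a description of them and no test was run on it.

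**Figure D4:**
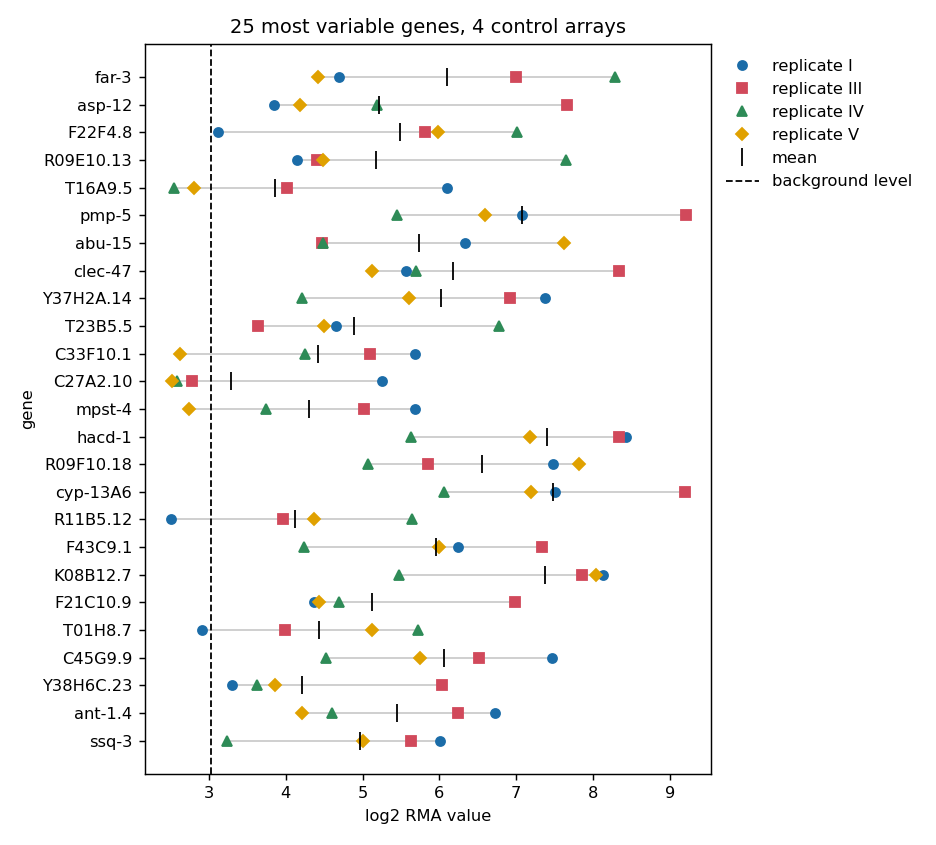
Log2 RMA values (horizontal axis) of the 25 genes with the largest SD among genes with a mean above background (rows, largest SD at the top) on the 4 control arrays, 1 marker per replicate, with the mean as a vertical tick and the background level as a dashed line. In most rows 1 array, or a pair of arrays, lies far from the others, and it is not the same array in all rows.

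The widest spread belonged to *far-3*, a fatty acid and retinol binding protein gene, which was highest on IV, at 8.29, and lowest on V, at 4.42, with an SD of 1.86. The other 7 far genes had SDs of 0.47 or less. The aspartic protease *asp-12* had 3.85, 7.66, 5.18 and 4.19, the ABC transporter *pmp-5* 7.07, 9.21, 5.45 and 6.60, the lectin *clec-47* 5.56, 8.34, 5.70 and 5.12 and the cytochrome P450 *cyp-13A6* 7.50, 9.19, 6.05 and 7.19. All of these 4 were highest on III. The protein-coding *F43C9.1*, *F21C10.9* and *Y38H6C.23* were highest on III as well, with 6.24, 7.34, 4.24 and 5.99 for *F43C9.1*, 4.37, 6.98, 4.69 and 4.43 for *F21C10.9* and 3.30, 6.04, 3.63 and 3.86 for *Y38H6C.23*. The hydroxyacyl-CoA dehydrogenase gene *hacd-1* had 8.43, 8.34, 5.63 and 7.18, *Y37H2A.14* had 7.37, 6.92, 4.22 and 5.60 and *C45G9.9* had 7.46, 6.52, 4.52 and 5.75. These 3 were highest on I and lowest on IV. Other genes were high on 1 array only. *R09E10.13* had 4.15, 4.41, 7.65 and 4.49 and *T23B5.5*, an ncRNA, had 4.65, 3.63, 6.78 and 4.50, both highest on IV, and the ncRNA *C27A2.10* had 5.25, 2.78, 2.59 and 2.52, at background on all arrays but I. The ncRNA *K08B12.7* was low on IV alone, with 8.13, 7.86, 5.47 and 8.04. *C33F10.1* had 5.69, 5.10, 4.25 and 2.63, at background on V only.

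The array on which a gene was highest was shared within several groups of related genes. Over the genes with a mean above background, I was highest for 26.4%, III for 22.8%, IV for 26.4% and V for 24.5%, and IV was lowest for 33.3%, I for 23.2%, III for 22.1% and V for 21.4%. Counts in a list were read beside these shares, as a description.

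Genes of the propionate shunt and of the methionine cycle were highest on III. These lists were drawn up after their values had been seen. The propionate shunt breaks down propionate where vitamin B12 is scarce, and its first enzyme *acdh-1* had 10.61, 11.91, 9.83 and 9.08, an SD of 1.21. All 7 genes of the shunt and its regulators were highest on III, and 6 of 7 were lowest on V. The shunt enzymes *hphd-1* and *ech-6* had 9.30, 10.34, 8.63 and 8.74 for *hphd-1* and 10.62, 11.52, 10.38 and 10.27 for *ech-6*, and *nhr-68*, a nuclear receptor that regulates the shunt, 5.96, 7.33, 5.54 and 5.24. The receptor *nhr-114* had 7.24, 8.60, 6.11 and 6.21. All 6 genes of the methionine cycle were highest on III too, among them the methionine synthase *metr-1* with 8.80, 9.84, 8.24 and 8.30 and its reductase *mtrr-1* with 7.42, 9.09, 7.49 and 7.47. The methionine sulfoxide reductase *msra-1*, which is in neither list and was named outside the rule, had 9.41, 11.45, 9.41 and 9.22. Of the 5 genes of the B12-dependent route, *mmaa-1* was highest on III with 8.18, 9.10, 8.03 and 8.02, and the other 4, of which 3 were highest on IV, had SDs of 0.14 or less.

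Intestinal genes were lowest on IV. Of the 15 in the list 14 were lowest on IV, with a median deviation from their own means of -0.42 on IV, 0.24 on I, 0.28 on III and -0.04 on V. The peptide transporter *pept-1*, named after the values were seen for having the largest SD of the list, had 8.78, 9.02, 7.38 and 8.16. Of the cpr and asp proteases 16 of 25 were lowest on IV and 14 highest on III. Of single genes picked after their values were seen, 3 were also lowest on IV, with 9.59, 9.76, 7.56 and 9.45 for the acyltransferase *dgat-2*, 8.34, 8.33, 7.04 and 8.09 for the desaturase *fat-6* and 9.80, 10.16, 7.94 and 8.72 for the folate transporter family gene *folt-2*. Lists of lipid genes did not share this order as a whole, since 4 of 7 desaturase genes were lowest on IV while 7 of 8 far genes were highest there. Body wall muscle ran differently, with 14 of 20 genes lowest on III but a median deviation there of only -0.13.

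**Figure D5:**
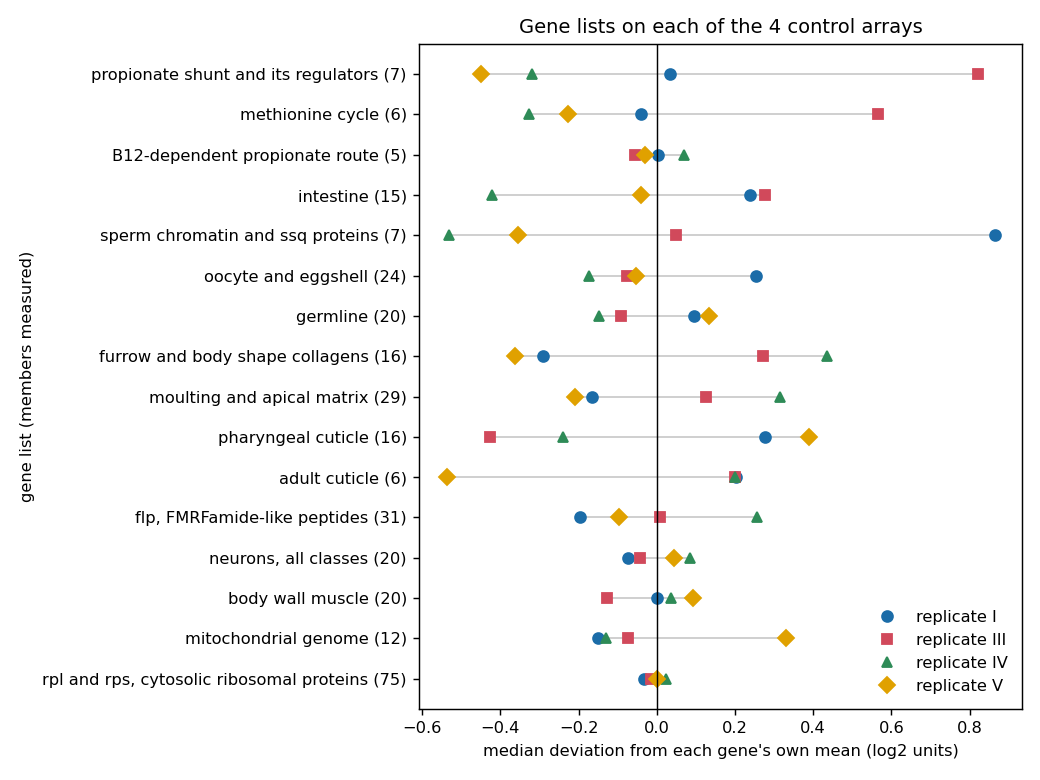
Median, over the measured members of a gene list (rows, number of members in parentheses), of each gene's deviation from its own mean (horizontal axis, log2 units) on each of the 4 control arrays. Propionate shunt and methionine cycle genes are highest on III, sperm chromatin genes on I and furrow collagens and flp peptides on IV. Mitochondrial genome genes are highest on V, while ribosomal protein genes stay near 0. The lists of the propionate shunt, methionine cycle, B12-dependent route and sperm chromatin were drawn up after the control values were seen.

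A small group of genes expressed in sperm was highest on I, which the larger sperm list was not as a whole. A list of sperm chromatin (spch) and ssq genes was drawn up after the values were seen. Of its 7 genes 3 were above background and 4 had arrays on both sides, with array medians of 5.08, 3.62, 2.77 and 3.26. In this list 6 of 7 were highest on I and all 7 lowest on IV or V. The values were 6.00, 5.63, 3.24 and 5.01 for *ssq-3*, 5.15, 3.37, 2.64 and 3.26 for *ssq-4* and 5.08, 3.62, 2.58 and 3.01 for *spch-3*. In the larger sperm list the 3 with the largest SD were *gsp-3*, *spe-41*, a cation channel with 4.45, 4.27, 3.05 and 3.69, and *fer-1*, a ferlin with 4.60, 3.76, 3.76 and 3.12, all highest on I. Over that list the count was 9 of 25 highest on I, with 11 lowest on V, and the median deviation was -0.02 on I, 0.04 on III, -0.05 on IV and -0.18 on V. Of the 25 most variable genes *ant-1.4*, an adenine nucleotide translocase, *mpst-4*, a sulfurtransferase, and *T16A9.5* showed a like order, with 6.72, 6.24, 4.60 and 4.21 for *ant-1.4*, 5.69, 5.02, 3.75 and 2.74 for *mpst-4* and 6.10, 4.01, 2.54 and 2.80 for *T16A9.5*. Genes of oocytes and eggshell were highest on I in 14 of 24 cases, with a median deviation of 0.25, and meiosis genes in 11 of 21, lowest on IV in 14. For *egg-5*, a pseudophosphatase of the egg with the largest SD of the oocyte list, the values were 5.95, 6.53, 7.09 and 7.12, lowest on I. For the synaptonemal protein *syp-1*, with the largest SD of the meiosis list, they were 5.50, 4.26, 4.69 and 5.24.

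Furrow collagens and flp peptide genes were mostly highest on IV. Of 16 furrow and body shape collagens 13 were highest on IV and 9 lowest on V. Of 29 moulting genes 14 were highest on IV and 14 lowest on V. Other cuticle genes did not all share this order. Of 6 adult cuticle genes 3 were highest on IV and 4 lowest on V. The pharyngeal cuticle list had 9 of 16 highest on V and 10 lowest on III, and the 153 col genes were highest on V in 49 cases, on IV in 47, on I in 38 and on III in 19, with 69 lowest on III. Of 31 flp genes 27 were highest on IV and 20 lowest on I, with median deviations of 0.26 on IV and -0.20 on I. Its most variable member *flp-17* had 7.25, 7.83, 8.48 and 7.85. The nlp genes were highest on IV in 43 of 78 cases, with 7.04, 6.86, 8.69 and 7.71 for *nlp-34*, the most variable, and the insulin gene *ins-11* had 4.13, 4.41, 5.92 and 4.39. The genes for all classes of neurons were highest on IV in 10 of 20 cases, with a median deviation of 0.09. In the stress list 7 of 22 genes were highest on IV and 6 lowest there. The largest SD of that list belonged to *irg-5*, a gene of the response to infection named outside the rule. Its values were 7.52, 7.87, 9.57 and 6.97.

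Genes of the mitochondrial genome were highest on V. All 12 were, with a median deviation of 0.33, and the count was 10 of 12 when the 4 arrays were quantile normalized again. The values were 8.49, 8.52, 8.56 and 9.52 for *ND6*, 12.14, 12.19, 12.14 and 12.74 for *ATP6* and 12.09, 12.13, 12.12 and 12.68 for *COX2*, so that I, III and IV were alike within each gene and V stood above them. The nuclear genes of mitochondrial ribosomal proteins were highest on V in 43 of 70 cases, with a median deviation of 0.12.

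Non-coding genes were lowest on I more often than on any other array, though most were not. Of 1978 ncRNA genes with a mean above background 819 were lowest on I and 752 highest on IV, with median deviations of -0.12 on I and 0.09 on IV. The median level of these genes was 3.58, near the background level of 3.03. Array IV had the highest median over all probe sets, at 3.504, and these counts were not repeated after quantile normalization again. Over all 5972 ncRNA genes, 1966 were lowest on I, with a median deviation of -0.04. Among the 22 ncRNA genes with an SD of at least 1, 13 were lowest on I and 15 highest on IV. Such values were 3.12, 5.82, 7.01 and 5.98 for *F22F4.8*, 2.50, 3.96, 5.64 and 4.37 for *R11B5.12* and 2.91, 4.00, 5.72 and 5.12 for *T01H8.7*. An exception was *R09F10.18*, with 7.48, 5.85, 5.08 and 7.82, highest on V.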

How the data were processed

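RNA was measured on Affymetrix Gene ST arrays, called Gene 2.0 ST in the labels and Gene 1.0 ST in the study's methods. The deposited values are on the log2 scale and were made by the authors with RMA (background correction, quantile normalization over the arrays, 1 value per probe set). For this comparison the study's methods give the R package oligo. A filter on low brightness is not given in the sources used here. They were used unchanged, with 0 missing values and 0 columns left unmapped. RMA draws the distributions of the arrays together, so that a difference in total RNA between replicates cannot be seen.

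The platform's annotation gave the gene symbols, of which 25495 were found by identifier in the reference gene table (WBcel235). Probe sets with several symbols (646) or none (3125) name no gene. For 57 genes with several probe sets the brightest stood for the gene. Dim probe sets pile up at the bottom of the scale, so the background level (3.03) is a convention. Precision is limited by the number of arrays. A gene was called variable at an SD of at least 1 with a mean above background.

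The 33 gene lists, 22 symbol families and rules were made with earlier results of these data known, and 6 further lists after the control values were seen. The chemoreceptor pattern was narrowed once the symbols were seen, and mitochondrial genes were taken by chromosome. The naming rule allows the 25 brightest genes, the 4 brightest and 2 dimmest members of a list (all members of lists of up to 12), the 25 genes with the largest SD, the 3 with the largest SD in moulting, germ line and stage lists, the 2 brightest and the most variable member of a family, and genes the study discusses. Not every allowed gene is named, and genes outside the rule are said to be so. Alternatives were other background levels (30th and 50th percentiles, 90th percentile of chemoreceptor means), averaging a gene's probe sets, quantile normalization again over the 4 arrays, centring on array medians, leaving out each array, a range of at least 2 in place of the SD, and other filters on dim genes. Python 3.11.15, pandas 2.3.3, numpy 2.4.6 and matplotlib 3.10.9 were used.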

Additional observations from a re-analysis of the deposited data

Results flagged for a closer look

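Among 237 genes named in the text or in its plots, 24 had 1 control array far from the other 3. The measure was the gap between the extreme array and its neighbour divided by the range of the 4 values. The limit was the 95% limit of Dixon's test, which chance passes for about 1 group in 20. Many of the 237 genes were named for their spread or after their values were seen. The 24 can therefore not be read against that rate. The measure does not depend on the size of the range, so that some of these genes differ little between arrays.

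Array III was the extreme one for 9 genes. It was high for *mtrr-1* (0.958, over a range of 1.67), *msra-1* (0.914, range 2.23), *mmaa-1* (0.854, range 1.08), *fat-5* (0.844, range 1.80), *F21C10.9* (0.879, range 2.61), *srr-4* (0.906, range 0.88), *hsp-70* (0.891, range 0.67) and *end-1* (0.836, range 0.14), and low for *bbs-5* (0.893, range 0.30). Of these, *hsp-70* and *end-1* were at background on all 4 arrays.

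Array IV was the extreme one for 7 genes. It was high for *R09E10.13* (0.903), *ins-11* (0.843, range 1.79), *dmd-3* (0.843, range 0.47) and *rpl-39* (0.849, range 0.11), and low for *K08B12.7* (0.899, range 2.66), *dgat-2* (0.857, range 2.20) and *cdc-6* (0.974, range 0.41).

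Array V was high for the mitochondrially encoded *ND6* (0.939, range 1.02), *COX2* (0.938, range 0.59) and *ATP6* (0.914, range 0.59), for *rpl-29* (0.915, range 0.56) and for *prg-1* (0.851, range 0.49), and low for *rps-14* (0.842, range 0.11). Array I was high for *C27A2.10* (0.903, range 2.73) and *ftn-1* (0.973, range 0.50).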

How the results depend on the processing

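No paired analysis was possible because the control arrays form a single group and no groups were compared. The count of genes above background (13324) stayed between 11469 and 15201 under the alternatives run. The count at background (7625) fell to 4470 with the level at the 30th percentile (2.76) and to 4988 with the 90th percentile of chemoreceptor means (2.80), and was 10985 with the 50th percentile (3.46). Of 1299 chemoreceptor genes, 807, 873 and 1256 were at background at these levels. Leaving out 1 array gave 13533 to 13710 genes above and 8046 to 8238 at background. The count of variable genes (81) was 144 with a range of at least 2 in place of the SD, which contained all 81, and 60 among genes above background on all 4 arrays. Leaving out 1 array gave 84 to 128 variable genes, with 127 without III and 128 without V, and of the 81 between 47 and 66 were kept. Quantile normalization again, median centring and averaging the probe sets of each gene were run on 237 named genes. They moved 2 means by more than 1 SD, those of *rpl-28* and *F31C3.15*. Leaving out 1 array cannot move a mean of 4 values by 1 SD, so the means were not tested in that way. The SDs changed more than 1.5-fold in 167 of 948 cases without 1 array and in 29 of 711 under the other settings. With 4 arrays a level close to the background cannot be placed on either side of it. Such genes made up 10 of 21 in the sensory cilium list, 2 of 5 in the yolk list and 1 of 4 in the dauer list.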

Other observations

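Fatty acid desaturase genes, listed after their values were seen, were all above background. The highest mean was that of *fat-1*, at 11.60 ± 0.10, followed by *fat-2* at 11.03 ± 0.41. Of the 7, 5 were highest on III, most widely so *fat-5*, with 4.72, 6.23, 4.44 and 4.64. Probe sets shared by several msp genes numbered 2. Their array medians were 5.20, 5.03, 5.01 and 4.05, lowest on V.

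The replicate numbers recur in the mild RNAi group, and the study does not say what a number stands for. For the 81 genes with an SD of at least 1 in controls, the deviations from the group mean on a control array were set against those on the mild RNAi arrays. Across these genes Pearson's r with the same-numbered mild array was 0.73 for I, 0.45 for III, 0.70 for IV and 0.46 for V. Each control array correlated most closely with the mild array of its own number. In the other direction this did not hold for mild V, whose r was 0.51 with control IV and 0.46 with control V. Over the other 15167 genes above background the same-number values were 0.46, 0.38, 0.39 and 0.27. Genes are not independent replicates, and deviations within 4 arrays sum to 0, so that these values are a description only.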
